A study of Mus musculus with 41 samples.

Results

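The subcutaneous adipose tissue (SAT) of 4-day-old male mice was compared between offspring of metformin-treated and vehicle-treated dams on a high fat diet (HFD). The 11 SAT arrays of the HFD experiment were taken by their labels, 6 control and 5 metformin, of 41 arrays in the series. A probe was used where it was detected (detection p under 0.05) on every array of at least 1 of the 2 groups, which kept 15848 of 45281 probes and 9360 of 19057 genes. Each gene is represented by its brightest kept probe, and its value is a log2 intensity after joint normalization of the 11 arrays.

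All animals were C57/BL6NHsd males. Both groups of dams ate HFD before mating and through gestation and were moved to regular diet after giving birth, so the HFD exposure before birth is common to all 11 samples. The metformin dams received the drug by mouth during gestation and the control dams received vehicle, and the pups themselves were not dosed. Each array held the RNA of 1 animal. The sample names carry codes of 4 kinds, which are used here as names: controls 1R-1, 1R-4, 1T-1, 1T-2, 1T-3 and 1T-4, and metformin samples 10K-2, 3R-1, 3R-2, 3R-5 and 3R-6. No kind of code occurs in both groups, so whatever the codes stand for and metformin cannot be told apart. By its methods the study left out a further metformin SAT array for low signal, which was not analysed here. The labels do not say which animals shared a dam, so the p-values measure the spread between these animals.

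White adipocytes store triglyceride in a single large droplet and secrete hormones such as adiponectin, whereas brown adipocytes burn fatty acids in mitochondria uncoupled by UCP1. In a newborn mouse the subcutaneous depot is a thin layer between skin and body wall muscle, crossed by vessels and close to lymph nodes, so a dissected piece can hold several tissues. Metformin is a biguanide that acts on mitochondrial complex I and lowers glucose output from the liver.

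The label was checked against defining genes in a joint normalization with the 12 HFD livers. The lipid droplet gene Plin1 was 8.12 to 9.71 in SAT and 4.25 to 4.63 in liver, and the fatty acid binding protein gene Fabp4 was 7.08 to 8.58 against 4.24 to 4.43. Of the liver genes, Alb was detected on 0 of the 11 SAT arrays, Serpina1a on 9 and Apoa1 and Ttr on all 11. Other tissues were present in the same samples. The skeletal muscle actin gene Acta1 ran from 7.62 to 14.25 between SAT samples, the brown fat gene Ucp1 from 6.38 to 13.28, and the T cell gene Cd3d from 4.48 to 9.06. The blood vessel receptor gene Kdr was detected on 0 of the 11, the brown fat gene Elovl3 on 1, and the basal keratinocyte genes Krt5 and Krt15 on 1 and 2. Because these are pieces of tissue, fewer cells of a type and less RNA of that type per cell cannot be told apart.

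Promoter sequences of 6 genes are shown as examples of the muscle and chaperone lists, both of which have a textbook DNA motif. In each, the 250 bases before the transcription start are given 5′ to 3′ from RefSeq (GRCm38.p6). The capitals mark the E-box CAGCTG, the motif of myogenic bHLH factors, in the 4 muscle genes, and the heat shock element core, GAANNTTC or TTCNNGAA, in the 2 chaperone genes. Every one of these motifs reads the same on both strands. In Hspd1, 3 overlapping matches form 1 run of capitals.
Acta1 (skeletal muscle actin, chr8:123894776-123895025, minus strand): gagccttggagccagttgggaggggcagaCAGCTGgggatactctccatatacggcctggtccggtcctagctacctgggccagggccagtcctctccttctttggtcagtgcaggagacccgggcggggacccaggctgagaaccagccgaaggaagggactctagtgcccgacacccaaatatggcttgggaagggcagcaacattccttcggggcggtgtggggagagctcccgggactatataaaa
Ckm (muscle creatine kinase, chr7:19410844-19411093, plus strand): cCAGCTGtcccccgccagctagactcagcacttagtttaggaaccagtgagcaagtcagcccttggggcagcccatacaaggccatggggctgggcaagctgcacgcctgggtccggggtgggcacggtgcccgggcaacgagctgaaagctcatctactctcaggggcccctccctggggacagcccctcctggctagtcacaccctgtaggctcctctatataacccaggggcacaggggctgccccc
Myl1 (alkali myosin light chain of fast muscle, chr1:66945057-66945306, minus strand): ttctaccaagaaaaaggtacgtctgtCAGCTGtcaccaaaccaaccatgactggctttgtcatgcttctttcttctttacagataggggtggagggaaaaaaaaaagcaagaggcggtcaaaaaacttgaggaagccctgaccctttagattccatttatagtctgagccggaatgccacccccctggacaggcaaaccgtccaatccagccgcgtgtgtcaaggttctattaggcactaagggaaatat
Mylpf (regulatory myosin light chain of fast muscle, chr7:127211358-127211607, plus strand): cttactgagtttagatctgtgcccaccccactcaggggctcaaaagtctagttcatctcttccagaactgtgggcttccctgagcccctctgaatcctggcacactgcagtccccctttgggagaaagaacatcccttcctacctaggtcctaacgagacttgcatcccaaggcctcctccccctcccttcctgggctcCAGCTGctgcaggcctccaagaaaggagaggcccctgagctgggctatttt
Hspd1 (mitochondrial chaperonin HSP60, chr1:55087933-55088182, minus strand): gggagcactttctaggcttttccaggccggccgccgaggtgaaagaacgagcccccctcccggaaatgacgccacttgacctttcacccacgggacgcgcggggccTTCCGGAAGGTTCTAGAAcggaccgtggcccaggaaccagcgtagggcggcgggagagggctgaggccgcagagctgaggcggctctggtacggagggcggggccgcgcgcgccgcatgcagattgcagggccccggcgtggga
Hsph1 (HSP110, a nucleotide exchange factor of HSP70, chr5:149636337-149636586, minus strand): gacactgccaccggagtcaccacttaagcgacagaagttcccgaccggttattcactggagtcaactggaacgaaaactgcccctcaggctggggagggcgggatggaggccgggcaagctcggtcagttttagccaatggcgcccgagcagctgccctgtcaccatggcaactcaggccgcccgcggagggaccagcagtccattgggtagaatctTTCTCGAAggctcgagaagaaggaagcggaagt

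A gene can have several promoters, so promoters and genes are counted apart. The E-box was in 4271 of 32851 RefSeq promoters of this length (13%) and in 14 of 30 promoters (46.7%) of the muscle list. By gene it was in 13 of the 27 muscle genes that could be matched. The heat shock element was in 4218 promoters (12.8%) and in 9 of 25 promoters (36%) of the chaperone list. By gene it was in 7 of the 20 matched chaperone genes. The promoter window of Hspe1, which encodes the HSP10 partner of HSP60, lies on the opposite strand and shares 215 bases with that of Hspd1, so these 2 genes count the same bases. Of the matched muscle genes with a higher level at an unadjusted p under 0.05, 2 of 4 held the E-box, and of the corresponding chaperones 3 of 9 held the heat shock element. A match to these letters is a description of the sequence and not evidence of binding.

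Few genes passed the adjusted threshold. After Benjamini-Hochberg adjustment over all kept probes in limma, 1 of 9360 genes (0.0107%) had a probe past the threshold of 0.05, and no gene had its brightest probe past it (0%, smallest adjusted p = 0.147). Before adjustment, 839 genes (8.96%) were higher and 705 (7.53%) lower with metformin at a p under 0.05, which is 16.5% of genes in all. The 5 metformin samples all lay above the 6 controls for 154 genes (1.65%) and all below them for 176 (1.88%). The median log2 difference was 0.03, with 53.6% of genes above 0 and 46.4% below. These shares are the background for every list described here. The number of called genes depended on the model, and was 804 of 9360 with array weights estimated from the same data. It was 334 of 10042 genes with the 12 HFD livers and 1042 of 12388 with all 41 arrays. In these wider models normalization, filter and estimate of spread were all shared.

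Array quality differed between the samples. Between 40.6% and 43.4% of probes were detected on 9 of the 11 arrays, but only 29.9% on control 1R-4 and 31.5% on control 1T-1. These 2 arrays also had the lowest median correlations with the other controls (0.934 and 0.919, against 0.951 to 0.970 for the rest), while the metformin arrays correlated at 0.970 to 0.985 with each other. Of the kept probes, 4614 (29.1%) were detected throughout the metformin group only and 115 (0.726%) throughout the control group only. Probes of the first kind had to be dim in a control and were higher at an unadjusted p under 0.05 in 756 cases and lower in 25, whereas the 11119 probes detected on all 11 arrays gave 768 and 1002. Many values moved when these dim controls were left out. Both values are given for some genes and lists, and a value given once can also depend on these 2 arrays.

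Hspa8, which encodes the constitutive HSP70 chaperone HSC70, was the gene with a probe past the threshold. On that probe the controls ran from 9.69 to 10.23 and the metformin samples were 11.06, 11.04, 10.81, 10.91 and 10.90. The groups did not overlap. The probe rose by 1.01 on the log2 scale (SE 0.127), from a mean of 9.93 ± 0.201 (SD, n = 6) to 10.9 ± 0.104 (SD, n = 5), with a limma adjusted p = 0.0392.

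The other 2 Hspa8 probes did not show this. The brightest differed by 0.08 (adjusted p = 0.776) and the third by -0.17 (adjusted p = 0.667), with overlapping groups on both. The call of Hspa8 therefore rests on 1 of its 3 probes, and why the probes differ was not tested. When single samples were left out in turn, the probe passed without control 1T-1 and missed the threshold without any of the other 10 samples.

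Chaperone genes lay mostly above 0. The heat shock and chaperone list had 24 tested genes, with Hspa8 among them by its brightest probe (0.08). Of the 24, 22 were above 0. The unadjusted p was under 0.05 for 10 that were higher and 1 that was lower, and the median log2 difference was 0.40. The list's mean level was 8.17 to 8.69 in controls and 8.84 to 8.99 in metformin samples, without overlap. None of the 24 brightest probes passed the adjusted threshold.

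Cct8, a subunit of the cytosolic chaperonin that folds actin and tubulin, was 9.31 to 9.61 in controls (median 9.56). In the metformin samples it was 10.06, 9.99, 10.09, 10.10 and 10.12, above every control. The difference was 0.58 (SE 0.109, adjusted p = 0.147).

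Hsp90aa1, the stress-inducible HSP90, was 6.77 to 7.41 in controls (median 7.20). It was 7.73, 7.70, 7.84, 8.25 and 7.87 with metformin, again without overlap, a difference of 0.73 (SE 0.153, adjusted p = 0.147), while its other kept probe differed by 0.30 with overlap. Hspd1 differed by 0.60 on its brightest probe and by 0.06 on its other kept probe (unadjusted p = 0.855). On the brightest probe, metformin sample 3R-1 (10.67) was inside the control range of 10.37 to 10.89 and the other 4 were at 11.24 to 11.45. Its partner Hspe1 differed by 0.78, the small heat shock gene Hspb8 by 1.07 and Hsph1 by 0.89. On the other side, Dnajb6, a co-chaperone of HSP70, was lower by 0.42 at an unadjusted p = 0.022. The classical stress-inducible HSP70 gene Hspa1a differed by 0.08.

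**Figure D1:**
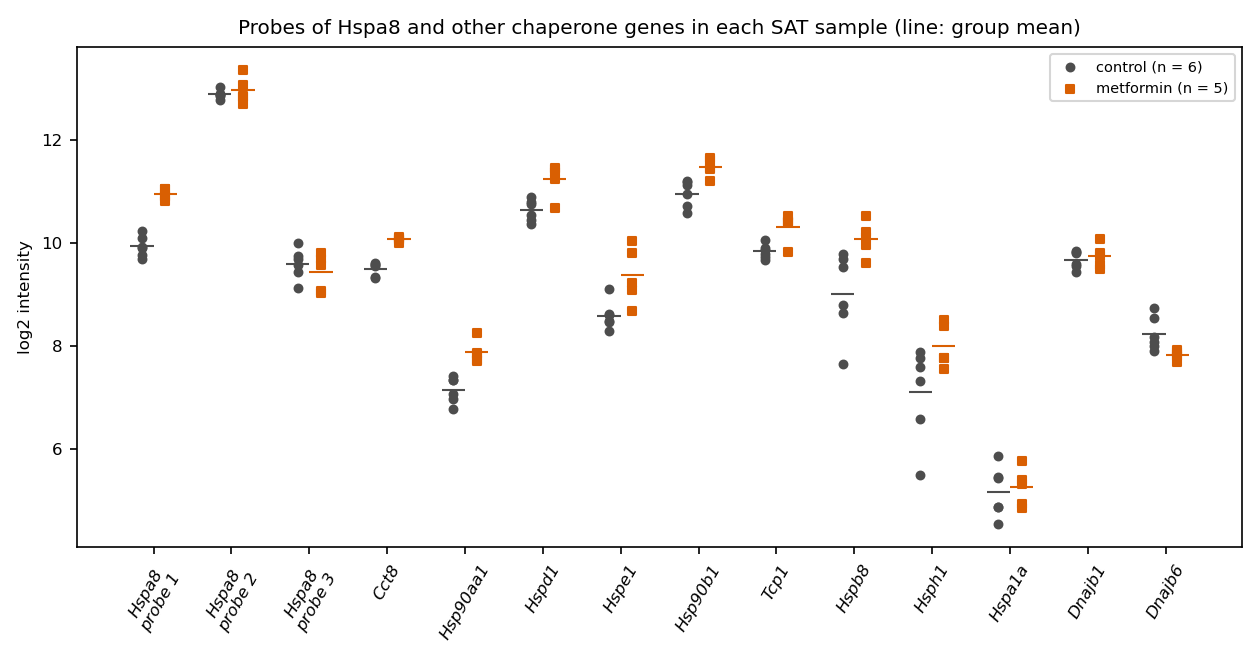
Log2 intensity of the 3 Hspa8 probes and of further chaperone genes in each of the 6 control and 5 metformin SAT samples, with group means. The 5 metformin samples lie above all controls for 1 Hspa8 probe (log2 difference 1.01), for Cct8 and for Hsp90aa1, and overlap with the controls for the other 2 Hspa8 probes.

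Among genes whose groups did not overlap, the 12 largest differences upward included 3 subunits of mitochondrial complexes. Cox7b, a subunit of cytochrome c oxidase (complex IV), was 5.63 to 7.83 in controls (median 7.54). With metformin it was 9.09, 8.05, 8.45, 9.50 and 9.05, a difference of 1.68 (SE 0.398, adjusted p = 0.147). It was 1.16 higher without controls 1R-4 and 1T-1. Atp5md, a small subunit of ATP synthase, differed by 1.38 and Ndufb2, an accessory subunit of complex I, by 1.22. Without the same 2 controls Atp5md differed by 1.13 and Ndufb2 by 0.96. Atp5md was detected on 5 of the 6 control arrays.

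Cxadr, the coxsackie and adenovirus receptor of cell junctions, had the largest of these upward differences, 1.77 (SE 0.351, adjusted p = 0.147). Controls ran from 4.56 to 6.07 and metformin samples were 7.58, 7.74, 6.20, 7.61 and 6.76. It was detected on 4 of the 6 control arrays. The groups did not overlap. Without both dim controls Cxadr differed by 1.41. Metformin sample 3R-2 was the closest to the controls, and without it Cxadr had an adjusted p = 0.00411. Leaving out the closest sample widens the gap, so that p adds no support. With any other single sample left out Cxadr did not pass.

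The remaining 8 of these 12 upward differences ran from 1.04 (Armc6) to 1.24. They were Anxa1, the annexin that dampens inflammation, Tnfrsf12a, the receptor of TWEAK, Ankrd1, a stretch-responsive gene of striated muscle, Trp53inp2, which takes part in autophagy, Pmepa1, an inhibitor of TGF-beta signalling, Gmppb, which makes GDP-mannose, Slc6a13, a GABA transporter, and Armc6. Anxa1, Ankrd1 and Gmppb were detected on 4 of the 6 control arrays and Tnfrsf12a and Armc6 on 5. Without both dim controls Anxa1 differed by 0.79, Gmppb by 0.69, Tnfrsf12a by 0.64 and Armc6 by 0.51, and the other kept probe of Armc6 differed by 0.54 with all samples.

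The 12 largest downward differences were likewise taken among genes whose groups did not overlap. Gpt2, the mitochondrial alanine aminotransferase, was 7.29 to 9.44 in controls (median 8.07). It was 6.28, 7.16, 6.60, 6.49 and 6.50 with metformin, a difference of -1.60 (SE 0.320, adjusted p = 0.147). Amy2a5, a pancreatic amylase gene from a cluster of near-identical copies, had the largest of these downward differences, -1.73 (SE 0.341), with controls from 9.27 to 11.47 and metformin samples from 7.65 to 9.15.

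Slc43a1, a transporter of large neutral amino acids, differed by -1.59, Slc27a1, the fatty acid transport protein of fat and muscle, by -1.43, and Prodh, which starts proline breakdown, by -1.14. In these 3 genes control 1T-1 stood far above the other controls (10.06, 11.53 and 9.30, with the next control at 7.15, 9.63 and 7.02). Without 1T-1 the differences were -1.09, -1.06 and -0.67. Sult1a1, a sulfotransferase, differed by -1.28 and by -0.98 without 1T-1.

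Txnip, the glucose-responsive inhibitor of thioredoxin, was 12.16 to 14.03 in controls (median 12.55) and 11.82, 11.84, 11.51, 11.91 and 12.11 with metformin. The difference was -1.01 (SE 0.299, adjusted p = 0.183), and the groups did not overlap. It was -0.77 without control 1T-1, and the other kept probe of Txnip differed by -1.20 with overlap. Lrrc8a, a subunit of the volume-regulated anion channel, differed by -1.26 on its brightest probe and by -0.13 on its other probe, so its value rests on the choice of probe. Without both dim controls the other probe of Lrrc8a was the brighter one, and the value of -0.09 in that fit belongs to it. On the probe with -1.26, the remaining controls ran from 6.64 to 7.68 with all samples normalized together. The metformin samples on that probe ran from 6.36 to 6.49, below each of these controls. The other 4 of these 12 downward differences, from -0.99 to -1.12, were Vnn3, a vanin, Rnf125, a ubiquitin ligase, Gramd1b, a sterol carrier, and Tmem176a, a membrane protein of myeloid cells. The other kept probe of Rnf125 differed by -0.35 and that of Gramd1b by -0.66, both with overlap.

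Skeletal muscle transcripts varied more between single samples than between the groups. The mean level of 37 muscle genes was 10.57, 9.92 and 9.75 in controls 1R-1, 1T-2 and 1T-4 and 5.53, 6.93 and 6.45 in controls 1R-4, 1T-1 and 1T-3. In the metformin samples it was 9.31, 9.68, 10.14, 8.94 and 10.05. All metformin samples were within the control range and above the 3 low controls, and the group means were 9.62 ± 0.51 (SD, n = 5) and 8.19 ± 2.13 (SD, n = 6).

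**Figure D2:**
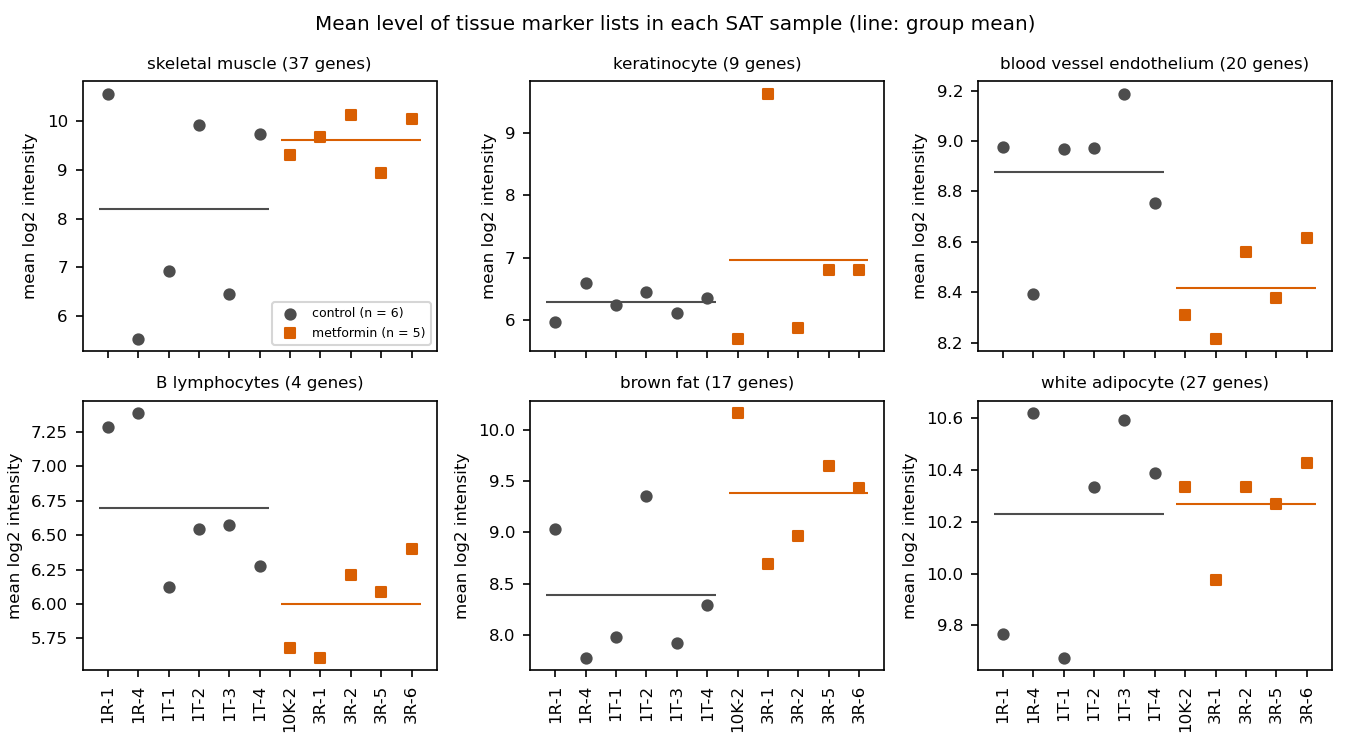
Mean log2 intensity of each tissue list in the 6 control and 5 metformin SAT samples, with each sample as a point and lines at the group means. The muscle list is low in controls 1R-4, 1T-1 and 1T-3 (5.53 to 6.93) and high in the other 3 (9.75 to 10.57), the keratinocyte list is highest in metformin sample 3R-1 (9.63), and for the endothelial list 5 controls lie above every metformin sample.

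Of the 37 muscle genes, 35 were above 0 with a median difference of 1.55, but the unadjusted p was under 0.05 for 5 of them, all higher. For 22 of them the probe was detected throughout the metformin group only. Mylpf was 5.98 to 13.22 in controls (median 11.29) and 12.64, 13.14, 13.74, 12.93 and 13.56 with metformin, a difference of 2.56 (SE 1.13, adjusted p = 0.285). Ckm differed by 2.14 (SE 1.08), Acta1 by 1.83 (SE 1.03) and Myl1 by 1.40 (SE 0.634), each with overlapping groups. Without both dim controls Mylpf differed by 1.02, Ckm by 0.90, Acta1 by 0.71 and Myl1 by 0.52.

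Fast fibre genes such as Tnnt3 (troponin T, 2.22), Myoz1 (a Z-disc protein, 1.99) and Mybpc2 (myosin-binding protein C, 1.89) lay together with Myh8, the perinatal myosin heavy chain (2.01). The slow fibre troponin genes Tnnt1 and Tnnc1 differed by -0.62 and -0.77, and the myoglobin gene Mb by 0.03. Without controls 1R-4 and 1T-1 the median of the skeletal muscle list was 0.53 and none of its genes had an unadjusted p under 0.05.

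Brown fat genes were higher in most metformin samples. Of 17 genes, 4 of which were detected throughout the metformin group only, 15 were above 0 and 11 were higher at an unadjusted p under 0.05, with none lower, and the median difference was 0.91. The list's mean level was 9.03, 7.78, 7.98, 9.36, 7.92 and 8.29 in the controls (in the order of codes given above) and 10.16, 8.69, 8.97, 9.64 and 9.44 with metformin. Controls 1R-1 and 1T-2 lay among the metformin samples. Without controls 1R-4 and 1T-1, which were also low in muscle transcripts, the median of the brown fat list was 0.55 and 5 genes were higher.

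Ucp1, the uncoupling protein of brown adipocytes, was 6.60 to 12.03 in controls (median 9.71). With metformin it was 13.35, 11.40, 11.10, 12.29 and 12.32, a difference of 2.80 (SE 0.854, unadjusted p = 0.00615, adjusted p = 0.183). Control 1T-2, at 12.03, lay above metformin samples 3R-1 and 3R-2. Without controls 1R-4 and 1T-1, the lowest for Ucp1, the difference was 1.57.

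Cidea, a lipid droplet protein abundant in brown adipocytes, differed by 1.59 (SE 0.498), with controls from 9.23 to 11.52 and metformin samples from 10.70 to 12.71. Cpt1b, the muscle and brown fat form of carnitine palmitoyltransferase, differed by 1.35, Pank1, a pantothenate kinase that starts coenzyme A synthesis, by 1.20, and Fabp3, the fatty acid binding protein of heart and muscle, by 2.50. Without both dim controls Cidea differed by 1.17, Cpt1b by 0.85 and Pank1 by 1.00. Fabp3, Cpt1b, Cox7a1 and Cox8b are also expressed in skeletal muscle. Prdm16, a transcriptional regulator of brown adipocyte identity, differed by 0.81 (unadjusted p = 0.00981) and by 0.45 without both dim controls, and Ppargc1a, the coactivator of mitochondrial biogenesis, by -0.02, with control 1T-1 at 9.99 and the other controls at 6.88 to 8.14.

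White adipocyte genes lay on both sides of 0. Of 27 genes, 13 were above 0, 2 were higher and 3 lower at an unadjusted p under 0.05, and the median difference was -0.05. Adipoq was 13.52 to 14.37 in controls and 13.33, 13.60, 13.42, 13.72 and 13.63 with metformin, a difference of -0.32 (SE 0.156, unadjusted p = 0.062).

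The 3 lower genes hydrolyse lipid. Ces1d, a triacylglycerol hydrolase, was 11.13 to 12.57 in controls (median 11.82) and 9.76, 10.00, 10.22, 10.63 and 11.25 with metformin. The difference was -1.51 (SE 0.287, adjusted p = 0.147), with metformin sample 3R-6 just above control 1T-2. Its neighbour in the same carboxylesterase family, Ces1f, differed by -1.30, and Pnpla2, the adipose triglyceride lipase, by -0.81 with controls from 12.91 to 14.06 and metformin samples from 12.20 to 12.97. Cross-hybridization within the Ces1 family was not tested.

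**Figure D3:**
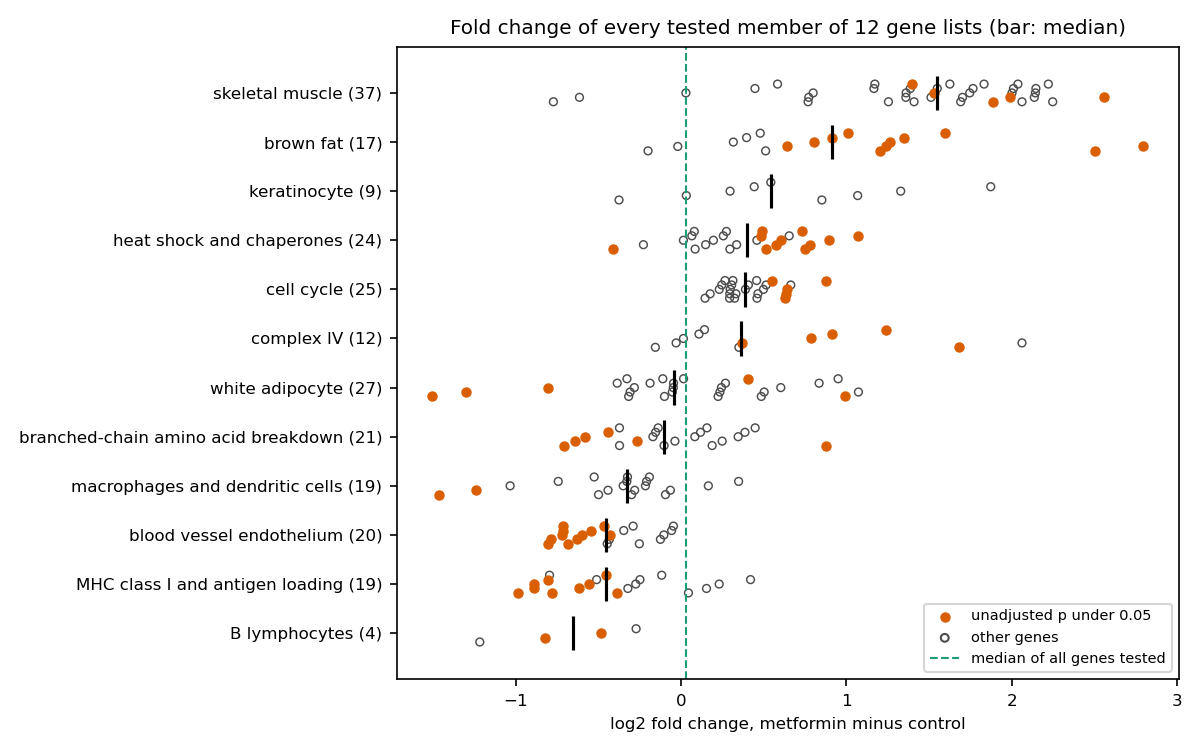
Log2 difference (metformin minus control) of every tested gene in each list, with the list median. Muscle and brown fat genes spread widely on the upper side, chaperones lie mostly between 0 and 1, and all 20 endothelial genes lie below 0.

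Blood vessel genes were lower in the metformin samples. All 20 tested endothelial genes were below 0, 11 of them at an unadjusted p under 0.05 and none higher, with a median difference of -0.46 and a range of -0.80 to -0.05. Every one was detected on all arrays of the metformin group, and 19 of the 20 on all 6 controls. For 6 genes (Cldn5, Mmrn2, Plvap, Cdh5, Pecam1 and Gpihbp1) the 5 metformin samples all lay below the 6 controls. No gene passed the adjusted threshold.

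Cldn5, the tight junction claudin of endothelium, was 10.69 to 11.26 in controls (median 10.93) and 9.97, 9.96, 10.21, 10.31 and 10.36 with metformin. The difference was -0.80 (SE 0.153, adjusted p = 0.147). Pecam1 (CD31) was 9.04 to 9.47 in controls and 8.78, 7.97, 8.93, 8.21 and 8.87 with metformin, a difference of -0.72, and Cdh5 (VE-cadherin) was 9.21 to 9.47 against 8.07, 8.49, 8.95, 8.57 and 9.08, a difference of -0.68.

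Plvap, the diaphragm protein of fenestrated capillaries, differed by -0.72, Mmrn2, a matrix protein of vessels, by -0.72, and Vwf, the von Willebrand factor, by -0.79. Gpihbp1, which carries lipoprotein lipase across capillaries, differed by -0.60. Emcn (endomucin) differed by -0.11 and the receptor genes Tek and Ptprb by -0.06 and -0.05. The endothelial list's mean was 8.39 to 9.19 in controls and 8.22 to 8.62 in metformin samples, and control 1R-4 was the 1 control inside the metformin range. Without 1R-4 the median of the blood vessel endothelium list was -0.61 with 15 of 20 genes at an unadjusted p under 0.05, and without both dim controls it was -0.59 with 15.

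**Figure D4:**
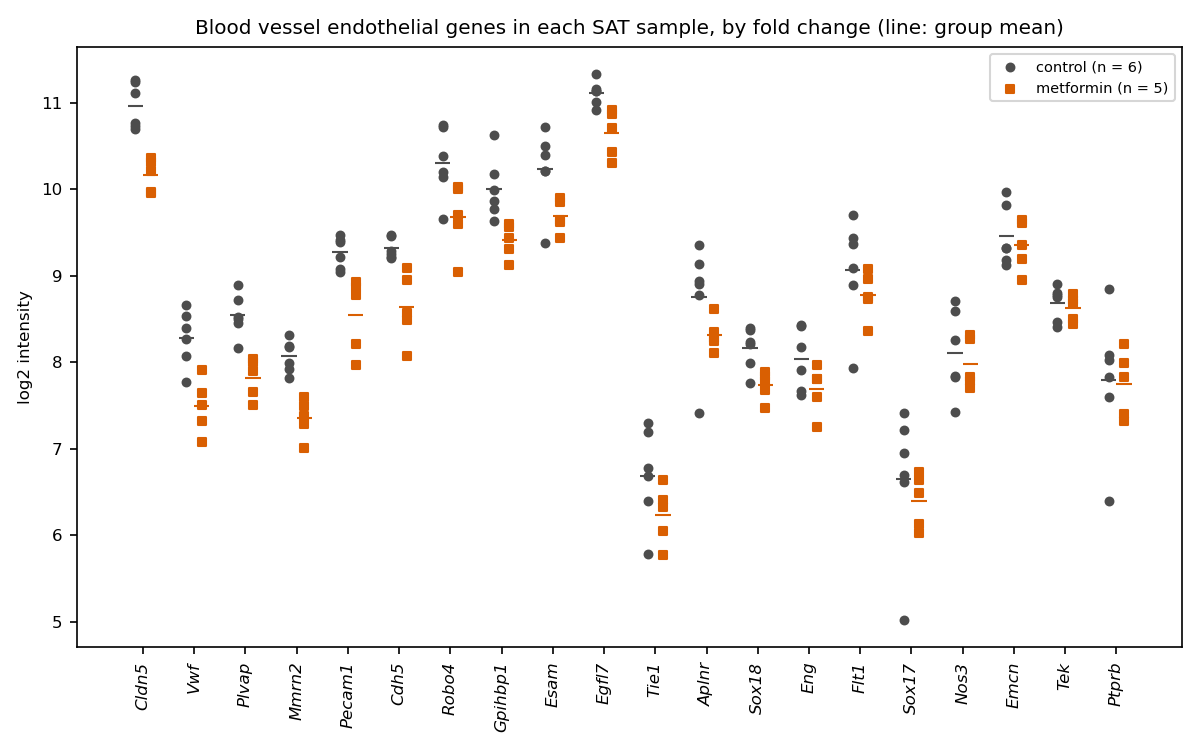
Log2 intensity of endothelial genes in each of the 6 control and 5 metformin SAT samples, with group means. Metformin samples lie below every control for Cldn5, Plvap, Mmrn2, Pecam1, Cdh5 and Gpihbp1, while Emcn overlaps (difference -0.11).

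Mural cells wrap the vessels. Of 14 smooth muscle and pericyte genes, 4 were above 0 and 2 were lower at an unadjusted p under 0.05, with a median of -0.19. The smooth muscle actin gene Acta2 was 11.79 to 12.51 in controls and 11.62 to 12.40 with metformin, and the smooth muscle myosin gene Myh11 differed by -0.39 with overlap.

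Some keratinocyte genes were high in 1 sample alone. Krt14, the keratin of basal epidermis, was 5.18 to 6.96 in controls and 5.22, 12.09, 5.16, 6.75 and 6.89 with metformin, and Lgals7, an epithelial galectin, reached 12.12 in the same metformin sample 3R-1. Of 9 tested keratinocyte genes none had an unadjusted p under 0.05, and the median difference of the keratinocyte list was 0.54 with 3R-1 and 0.16 without it. No hair follicle gene of 16 on the array passed the detection filter.

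Few lymphoid genes were detected on every array of a group. Cd79b was detected on 10 of the 11 arrays, Cd3d and Cd3g on 8 and Cd3e and Ms4a1 on 7. Of 18 listed B lymphocyte genes 4 passed the filter, and all 4 were below 0, with a median of -0.65 and 2 at an unadjusted p under 0.05. The 4 were Cd79b, Cd37, Fcer2a and Ebf1. Ebf1 differed by -0.27 on its brightest probe and by 0.14 on its other kept probe. On the brightest probe it was detected on all 11 arrays, at 7.74 to 8.99, and Fcer2a was dim at 4.65 to 5.80. How far these 2 genes follow B cells in this tissue was not tested. With the authors' log2 values the median of the B lymphocyte list was -0.18, with 1 gene lower at an unadjusted p under 0.05. Cd79b, a chain of the B cell receptor, was 5.07 to 9.03 in controls (median 7.28) and 5.05, 5.40, 6.57, 6.18 and 7.31 with metformin. The difference was -1.22 (SE 0.623, unadjusted p = 0.0726), with controls 1R-1 and 1R-4 highest at 9.03 and 8.56.

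Cd37, a tetraspanin of mature B cells, was 5.45 to 6.23 in controls and 4.60, 4.58, 4.96, 5.11 and 5.31 with metformin, a difference of -0.82 without overlap (SE 0.197, adjusted p = 0.147), although it was detected on only 3 of the 5 metformin arrays. Among 3 tested T lymphocyte genes none had an unadjusted p under 0.05. Cd74, the invariant chain of MHC class II, was 6.85 to 10.35 in controls and 6.25, 6.43, 7.81, 7.38 and 8.33 with metformin, a difference of -1.47 (unadjusted p = 0.0268). The class II genes H2-Ab1 and H2-Eb1 differed by -1.24 and -1.04 (unadjusted p = 0.0439 and 0.0570). Controls 1R-1 and 1R-4 were highest for Cd74 (10.35 and 9.96), with the other controls at 6.85 to 8.76, and for H2-Ab1 (9.97 and 9.37). Without 1R-4 the unadjusted limma p was 0.0615 for Cd74, 0.0961 for H2-Ab1 and 0.126 for H2-Eb1. Without 1T-1, the lowest control, Cd74 differed by -1.85 (unadjusted p = 0.00405). The macrophage receptor genes Adgre1 and Csf1r differed by 0.35 and -0.22.

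Class I molecules of the MHC show peptides from inside the cell to T cells. Of 19 genes of MHC class I and antigen loading, 15 were below 0 and 9 were lower at an unadjusted p under 0.05, none higher, with a median of -0.46. H2-D1 encodes one of the heavy chains and was 10.96 to 12.17 in controls (median 11.33) and 10.62, 10.22, 10.50, 10.58 and 10.92 with metformin. On this brightest probe it lay below every control, with a difference of -0.89 (SE 0.236, adjusted p = 0.157), and of -0.58 without both dim controls. The other kept probes of H2-D1 differed by -0.58 and -0.57 with all samples, both with overlap.

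Nlrc5, which switches on the class I genes, differed by -0.78, the peptide transporter gene Tap1 by -0.81, the non-classical H2-T23 by -0.99 (-0.62 without both dim controls) and the light chain gene B2m by -0.46. The class I genes resemble each other closely in sequence, and how far the probes separate them was not tested. The endoplasmic reticulum chaperones of the same list, Calr and Pdia3, were on the other side at 0.15 and 0.23.

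Respiratory chain genes lay mostly above 0. At an unadjusted p under 0.05, 9 of 34 complex I genes, 5 of 12 complex IV genes and 6 of 16 complex V genes were higher and none was lower, with medians of 0.25, 0.36 and 0.26. Without both dim controls 3 complex IV genes were higher, with a median of 0.25. Of the complex II and complex III lists, 1 of 3 and 1 of 8 were higher and none lower, with medians of 0.31 and 0.29. The 1 higher gene of the complex III list was Cycs (0.69), which encodes cytochrome c and not a subunit of complex III. Some complex IV subunits exist as a form of muscle and brown fat and a widely expressed form. Cox6a2, a muscle form, differed by 2.06 (SE 1.21) and the widely expressed Cox6a1 by 0.01 (SE 0.186). Cox6a2 differed by 1.13 without control 1R-4 and by 0.52 without both dim controls. Cox7a1 differed by 1.24 (0.71 without both dim controls) and the widely expressed Cox7a2 by 0.78 (SE 0.176, adjusted p = 0.147), and the difference between the forms was not tested.

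Cox7a2 was 7.29 to 7.64 in controls and 8.15, 7.59, 8.08, 8.63 and 8.52 with metformin, so 3R-1 overlapped the controls. For the complex I subunit gene Ndufs4 the 4 kept probes gave 0.34, 0.59, 0.69 and 0.94, and the last alone separated the groups. Across the mitochondrial lists 3R-1 was the lowest metformin sample and 10K-2 the highest, for example 11.08 and 11.72 for complex I, where controls ran from 10.89 to 11.43.

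Genes of branched-chain amino acid breakdown went both ways. Of 21 genes 5 were lower and 1 was higher at an unadjusted p under 0.05, and the median was -0.10. Without both dim controls 3 were lower and 2 higher, with a median of 0.017. Ivd, which oxidizes isovaleryl-CoA from leucine, was 9.96 to 10.44 in controls and 9.64, 9.30, 9.51, 9.48 and 9.72 with metformin, a difference of -0.64 without overlap (SE 0.130, adjusted p = 0.147). Auh, a hydratase further down the leucine pathway, differed by -0.71 without overlap, and Bcat2, the mitochondrial transaminase that starts the pathway, by -0.58. Dld, the dihydrolipoamide dehydrogenase shared by several mitochondrial complexes, was on the other side at 0.88 (SE 0.255).

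Cell cycle genes were all above 0 in difference, with few beyond the spread. Of 25 genes 5 were higher at an unadjusted p under 0.05, with a median of 0.39. For 6 of the 25 the probe was detected throughout the metformin group only, among them Ccne1 (4 of 6 controls) and Pcna (3 of 6). Mcm7, a subunit of the replicative helicase, was 6.66 to 7.24 in controls and 7.51, 7.29, 7.66, 7.72 and 7.66 with metformin, without overlap (0.63, SE 0.141, adjusted p = 0.147), and its other kept probe differed by 0.22 with overlap (unadjusted p = 0.345). The cell cycle list's mean was 6.53 in control 1T-1 and 7.23 to 7.85 in the other controls, against 7.77 to 7.92 with metformin, and its median difference without both dim controls was 0.10.

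To see which differences went with the tissue content of single samples, the mean level of a tissue list was added to the limma model as a covariate, 1 list at a time, with the list's own genes left out of the counts. The muscle score had a coefficient past an adjusted p of 0.05 in 138 of 9323 genes (1.48%), all positive. Of these, 17 were among the genes higher with metformin and none among those lower. With it, 438 genes were higher and 432 lower at an unadjusted p under 0.05, against 834 and 705 without it.

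**Figure D5:**
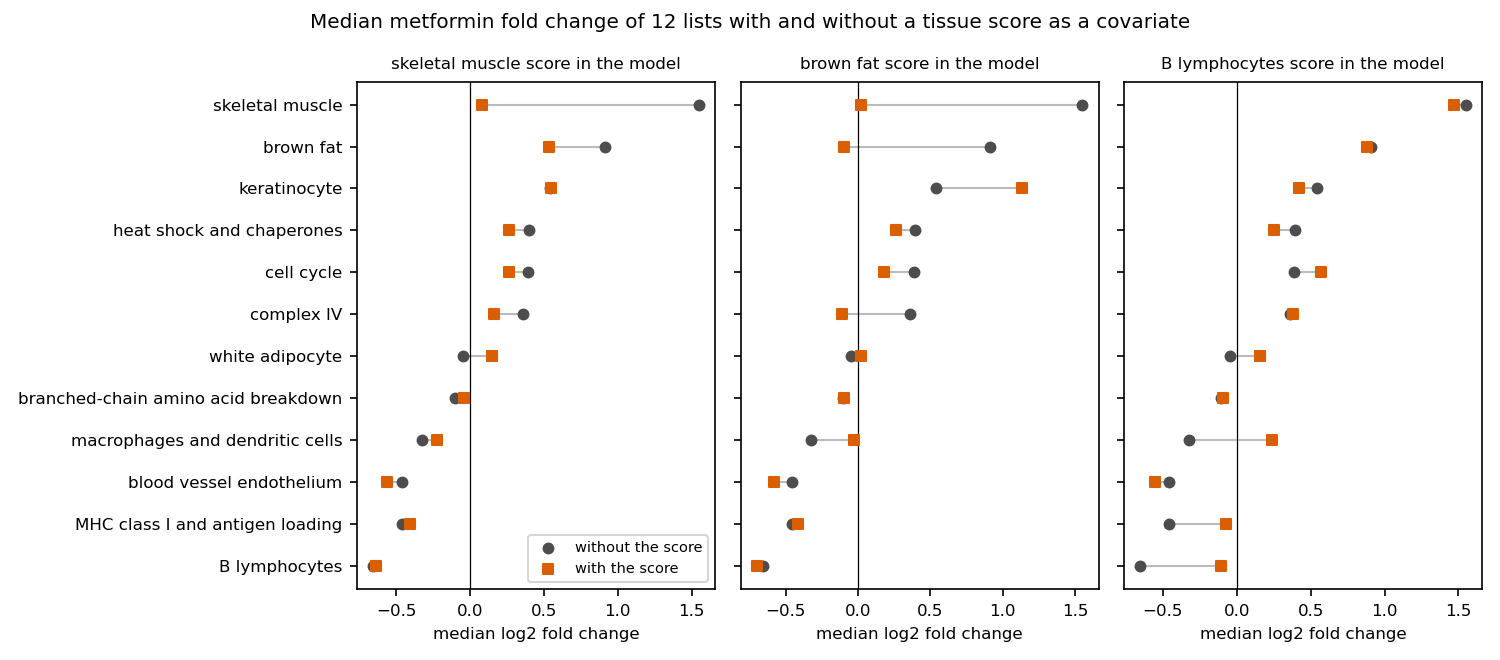
Median log2 difference (metformin minus control) of each list without a covariate and with the muscle, brown fat or B lymphocyte score in the model. With the muscle score the endothelial list goes from -0.46 to -0.56. The muscle list goes from 1.55 to 0.08 with it, by construction near 0 because the score is the mean of the same genes.

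With the muscle score the median of the brown fat list went from 0.91 to 0.53, of complex IV from 0.36 to 0.16 and of the chaperones from 0.40 to 0.26. The endothelial median went from -0.46 to -0.56 and MHC class I from -0.46 to -0.40. Among single genes Ucp1 went from 2.80 to 1.75, Cox7b from 1.68 to 1.24 and Cct8 from 0.58 to 0.51, while Cldn5 went from -0.80 to -0.79. Complex IV shares Cox6a2 with the muscle score.

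The brown fat score had a coefficient past the threshold in 10 of 9343 genes (0.107%), 6 of them among those higher with metformin, and left 199 genes higher and 175 lower at an unadjusted p under 0.05. With it the muscle median was 0.02, complex I 0.00, complex IV -0.11, fatty acid oxidation -0.09, the chaperones 0.26 and the endothelial genes -0.58. Complex IV shares Cox7a1 and Cox8b with the brown fat score and fatty acid oxidation shares Cpt1b and Slc25a20, so part of the shift in those lists is fixed by construction. Cox7b then differed by 0.79, Cct8 by 0.47 and Ces1d by -1.30. The brown fat score differed between the groups itself, so a difference due to metformin and one that follows brown fat content cannot be told apart by this model.

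The B lymphocyte score, from 4 genes with Ebf1 among them, had a coefficient past the threshold in 33 of 9356 genes (0.353%). Of these, 12 were among those lower with metformin. With it Cd74 differed by 0.25 in place of -1.47, the median of MHC class I was -0.07 and that of the macrophage and dendritic cell list 0.24, whereas H2-D1 differed by -0.80 and the endothelial median was -0.55.

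The endothelial score had no gene past the threshold (0 of 9340, 0%), and with it the muscle median was 2.55. The endothelial median was then -0.04, by construction near 0. The keratinocyte score had 7 of 9351 genes past it (0.0749%), and with it the TCA cycle median went from 0.36 to 0.47, the muscle median from 1.55 to 1.60 and the white adipocyte median from -0.05 to 0.05. With 11 samples and scores that differ between the groups, these models describe how values move together, and the part of tissue content in the metformin difference was not tested beyond them.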

How the data were processed

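The 11 SAT arrays are Illumina Mouse WG-6 v2 BeadChips, read in 1 colour. The authors deposited bead intensities without normalization. Beside each intensity the authors deposited a detection p-value, whose calculation is not given in the sources used here. The authors also deposited log2 values made by variance stabilization and robust spline normalization with lumi (version not given) together with the series' other arrays. These were used as an alternative, and ranked the probes of each array as the intensities did.

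The intensities were passed to neqc (limma 3.58.1, R 4.3.3), which used the detection p-values to estimate the background, added an offset of 16, normalized by quantiles and took log2. The 2 groups were compared with lmFit and eBayes, and p-values were adjusted over 15848 probes by Benjamini and Hochberg at 0.05. Other software was statmod 1.5.0 (array weights and block correlation), the data.table package (1.17.8), Python 3.11.15 and matplotlib 3.10.9. The models were tested on simulated data. Of all probes, 34885 had 1 gene symbol in the platform annotation, 18 several and 10378 none. Probes lacking a single symbol stayed in the adjustment and were left out of gene counts. A gene counts as called when any kept probe passes.

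List members were described by counts and medians, with no test of a list. A tissue score is the mean log2 value of a list's kept genes in a sample. Genes were named by rule: the 12 largest differences each way among genes with an unadjusted p under 0.05 and no overlap, every called gene, the 4 smallest p of each described list, the defining genes of tissues, genes the study names, and complex IV isoform pairs. Other members are named as list examples after their values were seen. The lists, members and rule were chosen with earlier results of these data known. Precision is limited by the number of arrays. The alternatives covered normalization, background, offset, filters, wider models, weights, covariates and left-out samples.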

Additional observations from a re-analysis of the deposited data

Results flagged for a closer look

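In each group of 5 or 6 samples, the gap between the most extreme sample and its nearest neighbour was divided by the range of the group, for the list means and the named genes (246 groups in all). Chance alone passes Dixon's 95% critical value in about 1 of 20 groups, and 16 groups passed. Their causes were not tested.

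Control 1T-1 was far above the other controls for Slc43a1 (gap over range 0.781), Slc27a1 (0.709), Prodh (0.698), Rnf125 (0.83), Gramd1b (0.68) and Cidec (0.689), and far below them for Krt10 (0.632) and Hba-a1 (0.695). It was 1 of the 2 controls with few detected probes, and 5 of these genes are among the 12 largest downward differences of genes whose groups did not overlap. Without it, Rnf125 differed by -0.62 in place of -1.03 and Gramd1b by -0.75 in place of -1.01.

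Metformin sample 3R-1 was far above the other metformin samples for the keratinocyte score (0.719), Krt14 (0.75), Dmkn (0.711) and Krt10 (0.729), and far below them for Ebf1 (0.784) and Hspd1 (0.739). Without it Dmkn differed by 0.43 in place of 1.07, and Hspd1 by 0.75 in place of 0.60.

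Control 1R-4, the other control with few detected probes, was above the rest for Ebf1 (0.6254). Control 1T-2 was below the rest for Ces1f (0.635).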

How the results depend on the processing

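Counts of genes past the adjusted threshold, 1 as reported, were 2 with the authors' log2 values (Hspa8 and Cct8) and 1 with no background correction, an offset of 50, no filter on dim probes, probes detected on all 11 arrays, a trended and robust variance, the animal code as a random block, or controls 1R-4 and 1T-1 left out. They were 0 with arrays centred on their medians, without the animals of code 1R, without the animal of code 10K, and with the skeletal muscle, keratinocyte, endothelium, B lymphocyte or brown fat score as a covariate. They were 1042 of 12388 genes in a model of all 41 arrays and 334 of 10042 in a model of the 23 HFD arrays. There the normalization, filter and spread are shared with other tissues. They were 804 with array weights estimated from the same data, and the weights of single arrays were not examined. Leaving out single samples gave 0 to 1.

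Higher and lower genes at an unadjusted p under 0.05, 839 and 705 as reported, were 1298 and 3 with median centring, 1259 and 1170 with no filter, 531 and 718 on all 11 arrays, 1727 and 1349 with 41 arrays, 1162 and 1277 with array weights, 440 and 434 with the muscle score, 494 and 548 with the B lymphocyte score and 199 and 175 with the brown fat score. The share of higher genes among them, 54.3% as reported, was 42.5% with probes detected on all 11 arrays, 41.8% without controls 1R-4 and 1T-1 and 99.8% with median centring. Leaving out single samples gave 570 to 963 higher and 521 to 802 lower.

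Median centring of the arrays moved the median of all genes to 0.55, and with it the medians of endothelium to 0.13, macrophages and dendritic cells to 0.16, white adipocyte to 0.63, heat shock and chaperones to 0.99, complex IV to 1.12, branched-chain amino acid breakdown to 0.55, cell cycle to 0.87 and MHC class I to 0.10. Relative to the median of all genes, endothelium was then -0.42, MHC class I -0.45 and the chaperones 0.45. The median of B lymphocytes was -0.18 with the authors' values. With a list's own score it was 0.078 for skeletal muscle, -0.037 for endothelium, -0.10 for B lymphocytes and -0.094 for brown fat, by construction near 0. With the B lymphocyte score it was 0.24 for macrophages and dendritic cells and -0.070 for MHC class I, and with the brown fat score -0.11 for complex IV.

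Without single samples the median ran from 1.01 (1R-4 left out) to 2.03 (1R-1) for skeletal muscle, 0.16 (3R-1) to 0.77 for keratinocyte, -0.61 to -0.40 for endothelium, -0.79 to -0.48 for B lymphocytes, -0.43 to -0.15 (10K-2) for macrophages and dendritic cells, -0.13 to 0.12 for white adipocyte, 0.74 to 1.07 for brown fat, 0.32 to 0.43 for chaperones, 0.30 to 0.47 for complex IV, -0.14 to -0.03 for branched-chain amino acid breakdown, 0.22 (1T-1) to 0.49 for cell cycle and -0.54 to -0.34 for MHC class I.

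Genes with a score term past the threshold numbered 4714 for muscle, 8581 for endothelium, 6610 for B lymphocytes and 7810 for brown fat with median centring, 47 for keratinocyte with the authors' values, and 70 for keratinocyte and 67 for B lymphocytes without controls 1R-4 and 1T-1. Without single samples they ran from 103 to 842 (1T-3) for muscle, 0 (3R-1) to 13 for keratinocyte, 0 to 0 for endothelium, 9 (1T-4) to 66 (1T-1) for B lymphocytes and 1 (1T-2) to 9 for brown fat. The cause of these shifts was not tested.

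With the mean of all kept probes, Sbsn was -0.019, Plin1 0.027 and Cox6a1 -0.023, each opposite in sign to its brightest probe and near 0. Over all alternatives, 37 named genes changed sign at least once on their brightest probe. No paired analysis was possible because the replicate numbers of the labels do not link control and metformin animals, which carry codes of different kinds. Dim probes limit what can be seen: a gene at background in some arrays has a compressed difference.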

Other observations

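Glycolysis genes lay above 0 in 14 of 15 cases (median 0.51, 2 higher at an unadjusted p under 0.05), and with the muscle score in the model the median was 0.19. Of 43 genes of the large subunit of the mitochondrial ribosome, 36 were above 0 and 14 were higher at an unadjusted p under 0.05, with a median of 0.25 that the muscle score left at 0.25 and the brown fat score took to 0.10. Of 20 genes of the TCA cycle and pyruvate dehydrogenase, 7 were higher and none lower. Cytosolic ribosome genes had a median of -0.10, with none of 34 at an unadjusted p under 0.05.

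Transcripts that the liver makes in quantity were detected in all 11 SAT samples, with overlapping groups. Apoa1, an apolipoprotein of HDL, was 6.55 to 11.20 in controls and 9.84, 11.14, 10.13, 6.08 and 9.02 with metformin, and Ttr, the thyroxine carrier transthyretin, was 7.12 to 11.23 against 10.24, 11.53, 10.73, 6.26 and 8.82. Both were highest in control 1R-4 and metformin sample 3R-1 and lowest in 3R-5.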
